A study of Mus musculus with 16 samples.

Results

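The comparison described here is that of macrophages lacking the microRNA miR-155 (KO) with wild-type macrophages (WT) after 24 h of lipopolysaccharide (LPS), the surface glycolipid of Gram-negative bacteria that Toll-like receptor 4 detects. It takes 4 of the study's 16 arrays, KO_24 with 2 and WT_24 with 2, set against each other within replicate number. The cells were grown from whole marrow of male C57BL/6Jax mice of the miR-155 KO or the WT genotype for 9 days in 10 ng/mL of the growth factor M-CSF, and the adherent cells then received 100 ng/mL LPS for 24 h. The other 12 arrays hold the same genotypes at 0, 6 and 12 h of LPS and are used to fit one common spread and to set the 24 h values beside those of earlier times. The labels give no mouse age and no account of how the KO allele was made, and they do not say whether replicates are separate mice or cultures, so p-values measure the spread between these arrays, which may be technical. Of 17650 genes tested, 10076 (57.1%) had a KO minus WT difference of the same sign in both replicate pairs and were well above background on both arrays of the brighter genotype, by the scanner software's own test. Of these, 4937 were higher and 5139 lower in KO. The remaining genes had opposite signs in the pairs (6720) or a brighter genotype that was not well above background on both arrays (854).

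MicroRNAs are short RNAs that guide Argonaute proteins to messenger RNAs, mainly through pairing of bases 2 to 8 of the microRNA, its seed, with sites in the 3′ part of the transcript, and they lower the stability or translation of those transcripts. miR-155 is cut from the transcript of its host gene, which Toll-like receptor signalling induces strongly in macrophages. Its reported targets include Inpp5d (the lipid phosphatase SHIP1, which opposes PI3K signalling) and Socs1 (an inhibitor of JAK-STAT signalling). At a late time of LPS, a macrophage transcriptome also holds secondary responses to autocrine cytokines and interferon.

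The mature miR-155 strand and the probe sites that match its seed are shown because the KO cells lack exactly this seed. The microRNA is encoded at chr16:84714143-84714165 on the plus strand (GRCm38.p6, sequence from RefSeq), and capitals mark its seed.
mmu-miR-155-5p: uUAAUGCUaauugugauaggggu
A transcript pairs with this seed through the letters AGCATTA. Agilent probes of 60 bases carry the sense strand, and the strand of the probe was that of the gene for 99.5% of 11312 genes that could be compared. These 7 letters occurred in 174 of 41077 probes (0.424%) and in the probe that stands for 68 of the 17650 genes tested (0.385%). The sites of 5 genes are given as 30 bases of the probe with the seed match in capitals. They are Cebpb (a reported target) and the 4 of these 68 genes with an unadjusted p under 0.05. Over all genes tested, the share with such a p was similar, at 5.6%. The sites lie within probes at chr2:167515847-167515905 (Cebpb, plus strand), chr13:95792733-95792792 (Wdr41, plus), chr2:150596979-150597038 (Entpd6, plus), chr15:78681251-78681310 (Cdc42ep1, plus) and chr7:147531274-147531333 (Olfr60, minus), on mm9 as the array files give it.
Cebpb: ttttccgtttcgAGCATTAaagtgaagaca
Wdr41: gcttggtAGCATTAaaatcatagggcgatg
Entpd6: tttgaatggtatAGCATTAactgatgtggg
Cdc42ep1: ggggggAGCATTAacatgcgtggaaaatgc
Olfr60: acatacgtaaacAGCATTAtgactctaata
A site in a probe says only that these letters are in this window of the transcript.

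Levels are given as log2 of the scanner signal minus the array's 75th percentile, so that a level of 0 is that percentile, and differences are KO minus WT on the same log2 scale with standard errors from the fit. The fit takes these errors from the replicate spread at every time, so a standard error can be large where the 24 h pairs agree. Over the 16 arrays the 75th percentile of the raw signal lay between 270.8 and 729.9 scanner units, and the share of probes well above background was 56.0% to 67.5%. The number of arrays, 2 a group, limits the precision: the median standard error of a 24 h difference was 0.30. The array held 0 probes for miR-155 or its host gene, so the genotype of the labelled arrays could not be checked. All 8 macrophage marker genes tested, among them Csf1r, Adgre1, Cd68 and Lyz2, were well above background on all 4 arrays. Arrays of replicate number 1 were scanned in one session and those of number 2 in another, per the file headers, so the difference within a pair is also the difference within a session. The arrays of pair 1 shared a slide, but in pair 2 the KO array was on slide 4 and the WT array on slide 3, so in that pair slide and genotype cannot be told apart. In the same fit, 9649 genes differed between the sessions at an adjusted p under 0.05. In these bulk samples fewer cells of a type and less RNA per cell cannot be told apart.

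No gene passed the test of KO against WT at 24 h: 0 of 17650 had an adjusted p under 0.05 (0%), and the smallest was 0.0891. The unadjusted p was under 0.05 for 989 genes (5.6%), 423 of them higher in KO (2.4%) and 566 lower (3.21%). Sign alone was shared by the pairs for 5310 genes higher in KO (30.1% of all tested) and 5620 lower (31.8%), and the counts given for gene groups should be set beside these shares. The median difference over all genes was -0.0001, and the quartiles were -0.25 and 0.22. Across all genes tested, the differences of the 2 pairs correlated at 0.272. Of the 10076 genes of shared sign and detection, 189 were at least 2-fold different in both pairs, 70 higher and 119 lower. In 3345 of the 10076, both KO arrays lay on the same side of both WT arrays. Lack of overlap is thus common with 2 arrays a group, and it is no test where it is given for single genes. No value given here is therefore a change established by the adjusted test, and each is what was measured on these arrays.

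**Figure D1:**
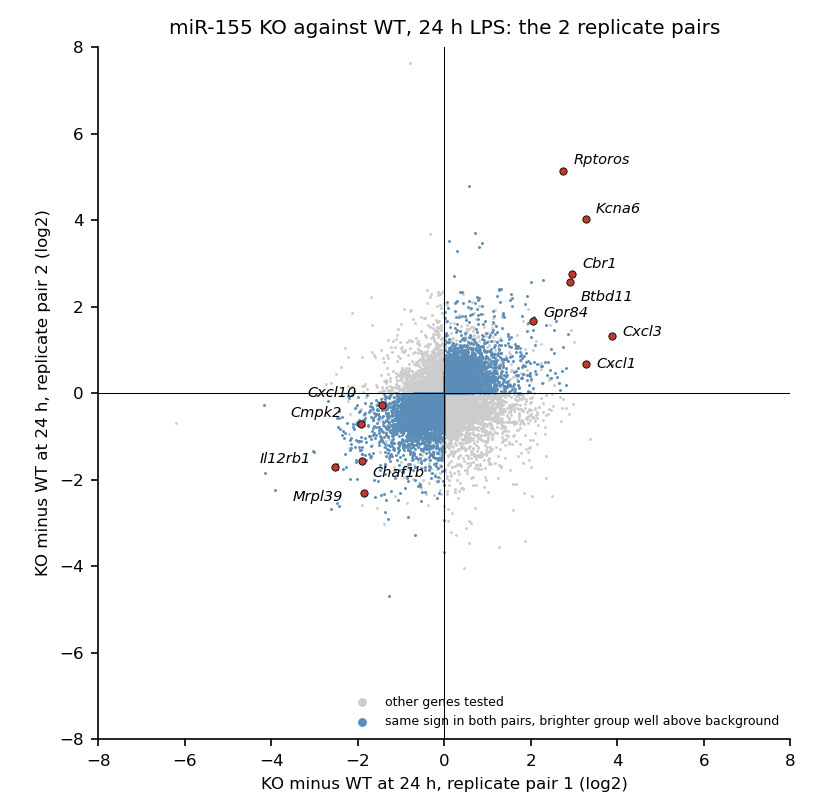
KO minus WT at 24 h of LPS in replicate pair 1 (horizontal axis, log2) against replicate pair 2 (vertical axis, log2) for 17650 genes. Blue points are the 10076 genes with the same sign in both pairs and a brighter genotype well above background, grey points are all others, and red points mark genes of the text. Rptoros, Kcna6, Cbr1 and Btbd11 stand far out at upper right and Mrpl39, Il12rb1 and Chaf1b at lower left, while most points lie close to the centre.

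The genes that measured most above WT included Cbr1, carbonyl reductase 1, an NADPH-dependent enzyme that reduces carbonyl compounds. Its levels were 3.43 and 3.01 on the KO arrays, against 0.49 and 0.25 on the WT arrays. The groups lay far apart, with a difference of 2.85 ± 0.53 (7.21-fold, adjusted p = 0.515). Cbr1 had differences of 2.48, 2.54 and 2.87 at 0, 6 and 12 h, so the higher level in KO was present before LPS as well. Another 3 transcripts with small p-values were not well above background on either WT array. They have only an approximate lower bound, set from the dimmest signal called well above background on each WT array. Single spots brighter than that can still fail the call, so the true bound can be smaller. Rptoros, a transcript from the strand opposite Rptor, read -5.08 and -2.64 on the KO arrays, against -7.83 and -7.78 on the WT arrays, which is at least 4.56-fold higher in KO (adjusted p = 0.0891). For Kcna6, a voltage-gated potassium channel subunit, the levels were -3.53 and -4.01 in KO and -6.79 and -8.03 in WT, at least 4.86-fold higher in KO (adjusted p = 0.117). Btbd11, named for its BTB domain, stood at -3.30 and -4.37 in KO and -6.20 and -6.94 in WT, at least 4.63-fold higher in KO (adjusted p = 0.0891). In each of these 3 both KO arrays were above both WT arrays. Kcna6 and Btbd11 had no such gap at 0 h (0 h differences of 0.36 and 0.36). Kcna6 ran the other way at 6 h (-2.06 ± 0.49) and had 0.84 at 12 h, while Btbd11 had 0.86 at 6 h and 1.99 at 12 h. Rptoros passed the test at every earlier time, 0 h (difference 4.65, adjusted p = 0.0435), 6 h (4.76, adjusted p = 0.0355) and 12 h (4.8, adjusted p = 0.011).

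Among transcripts measured on all 4 arrays, several with known roles in myeloid cells were higher on both KO arrays than on both WT arrays. Gpr84, a receptor for medium-chain fatty acids that LPS induces in macrophages, had levels of 4.89 and 5.21 on the KO arrays, against 2.85 and 3.54 on the WT arrays. Its difference was 1.85 ± 0.58 (adjusted p = 0.862), and both KO arrays exceeded both WT arrays. Il12a, the p35 subunit of IL-12, read -2.65 and -4.08 on the KO arrays, against -4.99 and -5.64 on the WT arrays. That is a difference of 1.95 ± 0.50 with no overlap (adjusted p = 0.803). Gfi1, a transcriptional repressor of myeloid development, measured -2.68 and -1.93 on the KO arrays, against -5.21 and -3.38 on the WT arrays (difference 1.99 ± 0.57). Bmp1, a secreted metalloprotease that trims procollagen, stood at 2.21 and 1.54 on the KO arrays, against 0.15 and -0.22 on the WT arrays, a difference of 1.91 ± 0.47, but another probe of the gene gave only 0.83. The dicarboxylate carrier Slc13a3 gave 1.47 and 0.75 on the KO arrays, against -0.46 and -0.88 on the WT arrays (1.78 ± 0.44). Cd300e, an activating receptor of monocytes, gave 3.72 and 4.74 on the KO arrays, against 2.18 and 3.67 on the WT arrays (1.31 ± 0.37). Others higher in KO in both pairs were Spn (CD43, 1.38 ± 0.29), the serine/threonine kinase Pim2 (1.39 ± 0.34), Trem3 (1.29 ± 0.47) and Mecr, an enzyme of mitochondrial fatty acid synthesis (1.36 ± 0.32). The 2 KO arrays themselves differed for Cxcl1 and Cxcl3, neutrophil-attracting chemokines. Cxcl3 had -0.23 and -3.27 on the KO arrays, against -4.10 and -4.58 on the WT arrays. Its difference was 2.60 ± 1.88 (adjusted p = 0.933), a large standard error that also holds the spread at other times. At 0 h Cxcl3 read -8.05 and -3.83 in KO and -8.51 and -4.07 in WT. Cxcl1 had -0.52 and -2.23 on the KO arrays, against -3.80 and -2.90 on the WT arrays, a difference of 1.98 ± 2.38, within its standard error. Here too the replicates lay apart at 0 h, with -4.19 and 3.30 in KO and -4.39 and 2.72 in WT. Of the remaining genes among the 15 largest higher in KO, Sgcd, Col9a1, Fndc10, Tpbpa and Mboat2 were not well above background on either WT array and Fn3krp on 1 of them, and the lower bounds ran from 1.67-fold (Col9a1) to 3.45-fold (Sgcd).

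Lower in KO, the smallest p belonged to Mrpl39, a protein of the large subunit of the mitochondrial ribosome. Its levels were 1.16 and 0.88 on the KO arrays, against 3.02 and 3.18 on the WT arrays. The difference was -2.09 ± 0.25 (4.25-fold lower, adjusted p = 0.0891), and the gap between the genotypes was wider than that between replicates. Chaf1b, a subunit of the chromatin assembly factor that deposits histones behind replication forks, had -0.13 and 0.45 on the KO arrays, against 1.78 and 2.02 on the WT arrays. That gave -1.74 ± 0.27 (adjusted p = 0.24), again with no overlap. Il12rb1, the receptor chain shared by IL-12 and IL-23, read -0.93 and 0.92 on the KO arrays, against 1.60 and 2.64 on the WT arrays. Its difference was -2.12 ± 0.34 (adjusted p = 0.249), with both KO arrays below both WT arrays. Kdr and Flt1, receptors for VEGF, had differences of -1.58 ± 0.33 and -1.26 ± 0.47, and all KO arrays lay below all WT arrays for each. Kdr measured -0.91 and 0.062 in KO and 0.83 and 1.47 in WT, and Flt1 -2.54 and -3.37 in KO and -1.07 and -2.31 in WT. Rgs1, which shortens chemokine receptor signalling, was lower in KO within each pair (-1.69 and -1.45), but the pairs sat at different levels, with 0.86 and 4.03 in KO and 2.55 and 5.48 in WT, so the groups overlapped. Mxd1, a MAX-binding repressor that opposes MYC, had 0.88 and 2.51 on the KO arrays, against 2.68 and 3.64 on the WT arrays (-1.46 ± 0.37). The heparin-binding growth factor Mdk had 1.21 and 2.32 on the KO arrays, against 2.90 and 3.54 on the WT arrays (-1.46 ± 0.47). The forkhead factor Foxq1 gave -0.075 and -0.85 in KO and 1.32 and 1.48 in WT (-1.86 ± 0.52), and Kitl, the ligand of the receptor Kit, -2.97 and -1.24 in KO and -1.92 and -0.10 in WT (-1.09 ± 0.28). A further 2 transcripts were not well above background on either KO array: Tnfsf8 (CD30 ligand), at least 2.05-fold lower in KO (adjusted p = 0.515), and Vps37d, a component of the ESCRT-I sorting complex, at least 2.71-fold lower (adjusted p = 0.154). With background corrected by normexp (a model of signal plus noise, in place of the scanner software's subtraction), the differences of these 2 turn positive, 0.44 for Tnfsf8 and 0.51 for Vps37d. The other genes among the 15 largest lower in KO were Olfr1143, Fabp12, Arhgap29, Diras1, Vwa3b, Lhx2, Cdk5r2, Olfr508, Cyp2c37, Trim54 and Mug2, with differences from -3.0 (Olfr1143) to -1.98 (Mug2) and no p adjusted below 0.803. Of these, the KO and WT arrays of Lhx2, Trim54 and Vwa3b overlapped. Arhgap29 and Mug2 were not well above background on either KO array, with bounds of 2.3-fold and 3.11-fold lower in KO on the group means. The pairs of Mug2 lay apart, at -0.67 and -3.29. Fabp12, Vwa3b and Cyp2c37 were well above background on only 1 KO array. Another probe of Arhgap29 ran the other way, at 0.67, and another probe of Cyp2c37 gave only -0.05. All genes of these 2 paragraphs outside the 15 largest each way were picked after their values were seen, from 55 genes of ordinary name (15 higher, 40 lower) that were well above background on all 4 arrays, at least 2-fold in both pairs and had an unadjusted p under 0.05.

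**Figure D2:**
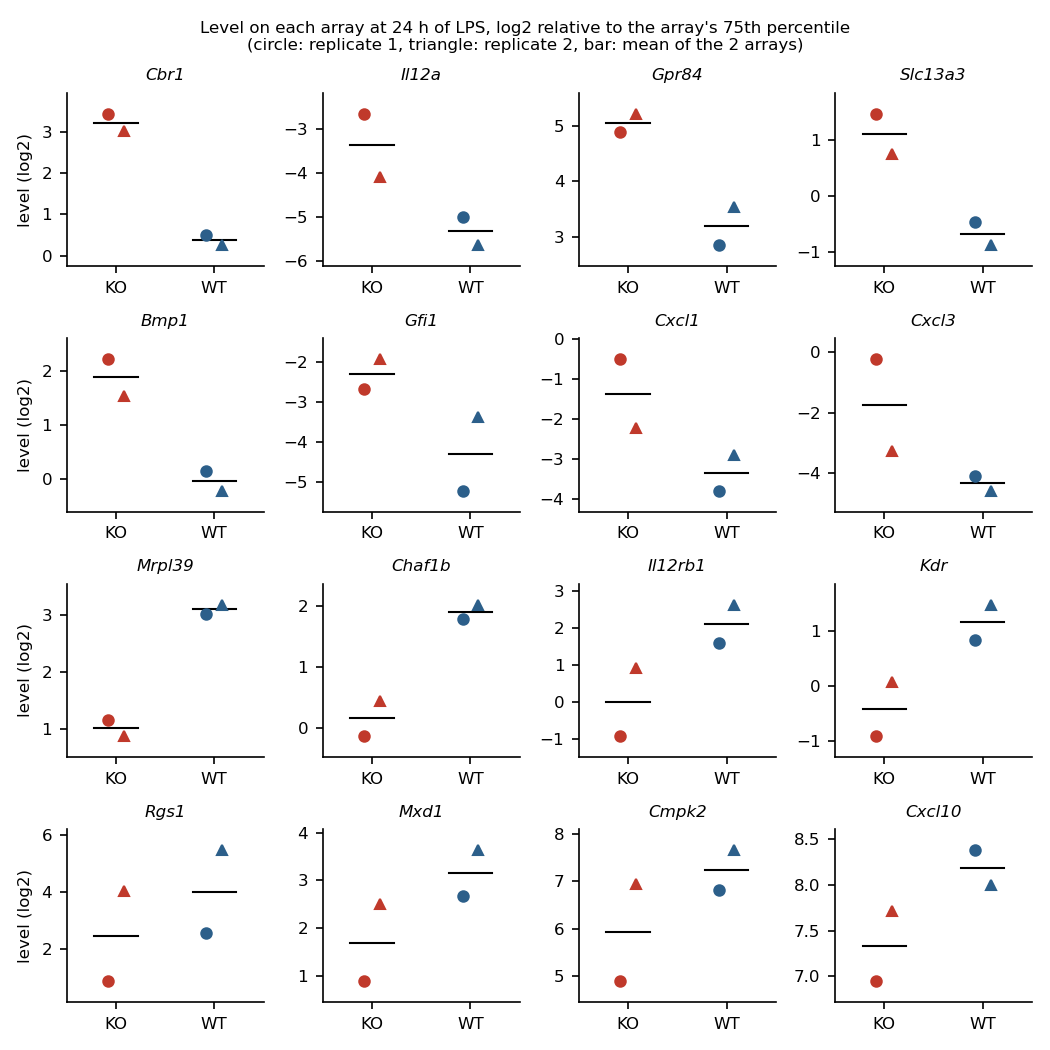
Levels of 16 genes on each array at 24 h of LPS (vertical axes, log2 relative to the array's 75th percentile), KO at left and WT at right. Circles are replicate 1, triangles replicate 2, and bars the mean of the 2 arrays. Both KO arrays lie above both WT arrays from Cbr1 to Cxcl3 and below them for Mrpl39, Chaf1b, Il12rb1, Kdr, Mxd1 and Cxcl10, while the groups overlap for Rgs1 and Cmpk2.

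Mrpl39 is the protein-coding gene next to Mir155 on chromosome 16 in the RefSeq gene order, and its probe spans chr16:84718622-84724086 on the minus strand (mm9). Of the 19 tested genes with a probe within 5 Mb of Mir155, 0 passed the adjusted test, and Mrpl39 and Krtap19-1 had an unadjusted p under 0.05. Krtap19-1, a hair keratin-associated protein gene, read 1.28 and 1.08 in KO and 1.86 and 1.66 in WT, a difference of -0.58 ± 0.26. Of the neighbours beyond Mrpl39, Jam2, a junctional adhesion molecule, had -0.48 ± 0.40, below the lower quartile of all genes (-0.25). Smaller differences were read for Atp5j, a subunit of ATP synthase (-0.05 ± 0.20), the ETS factor Gabpa (-0.084 ± 0.26) and App, the amyloid precursor protein (0.051 ± 0.22). Adamts1, a secreted protease, had 0.98 ± 0.45 on the probe that stands for it, while its other probe gave -0.0078. Cct8, a subunit of the chaperonin TRiC, had 0.30 ± 0.17 and the methyltransferase gene N6amt1 0.36 ± 0.30. Over these 19 genes, 6 were higher and 7 lower in KO in both pairs, and the median was -0.084 (0.037 without WT_24 replicate 2). Cbr1 (probe at chr16:93610497-93610556, plus strand) and Chaf1b (probe at chr16:93906269-93906329, plus strand) lie on the same chromosome further along, with 114 and 119 protein-coding genes between them and Mir155. The position of these genes was not tested as a factor in their difference.

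Interferon-stimulated genes, the antiviral and GTPase genes that type I and type II interferons switch on, measured lower in KO as a group. Of 63 tested, 51 (81%) were lower in both pairs, against 31.8% of all genes, and 3 (4.76%) were higher, against 30.1%. Their median difference was -0.44, -0.59 in pair 1 and -0.25 in pair 2, beside -0.0001 over all genes. The count called was 0 in either direction, and 4 had an unadjusted p under 0.05, all lower. Cmpk2, a mitochondrial nucleotide kinase induced by interferon, had 4.88 and 6.95 on the KO arrays, against 6.80 and 7.66 on the WT arrays. Its difference was -1.31 ± 0.57 (adjusted p = 0.875), and 1 KO array lay above 1 WT array. Irf1, a transcription factor of the interferon response, had 5.23 and 5.89 on the KO arrays, against 6.05 and 6.46 on the WT arrays. Its arrays did not overlap, and the difference was -0.69 ± 0.19 (adjusted p = 0.849). Slfn5, of the Schlafen family, gave 4.82 and 5.51 in KO and 5.23 and 6.38 in WT (-0.64 ± 0.22). Trim30a, a TRIM protein induced by LPS, gave 4.72 and 4.66 in KO and 5.24 and 5.18 in WT (-0.52 ± 0.22). The interferon gene Ifnb1 itself had -0.99 and 0.035 in KO and -0.086 and 0.61 in WT, a difference of -0.74 ± 0.49 with a 95% interval of -1.85 to 0.37. Wide gaps in pair 1 with narrow ones in pair 2 were seen for Xaf1 (-2.01 and -0.27), Mx1 (-1.72 and -0.31), an antiviral GTPase, and Rsad2 (-1.45 and -0.40), the antiviral enzyme viperin. Evenly lower in both pairs were Gbp5 (-0.95 and -0.81) and Herc6 (-0.86 and -0.80), a ligase that attaches ISG15. The direction was not uniform: Oasl2 (0.024 and 0.35), Ifi44 (0.16 and 0.56) and Parp9 (0.13 and 0.88) were higher in both pairs. The size of the group's median rested on single arrays, since it was -0.11 without KO_24 replicate 1 and -0.82 without KO_24 replicate 2, negative both times, and -0.71 with the slide as the block.

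Cytokines and chemokines split by gene. Of 42 tested, 21 (50%) were lower in KO in both pairs and 13 (31%) higher, with a median of -0.41 and a range from -1.62 to 2.60. That median turned to 0.13 when KO_24 replicate 1 was left out, and was -0.62 without KO_24 replicate 2, -0.099 without WT_24 replicate 2 and -0.13 under the normexp background correction. On the lower side, Cxcl11 (-2.35 and -0.89 in pairs 1 and 2) and Cxcl10 (-1.44 and -0.28) are interferon-induced ligands of Cxcr3. Cxcl10 had 6.94 and 7.72 on the KO arrays, against 8.38 and 8.0 on the WT arrays, with no overlap and a difference of -0.86 ± 0.54 (95% interval -2.08 to 0.36). Il15, a growth factor of NK and memory T cells, had 0.71 and 2.72 on the KO arrays, against 2.30 and 3.5 on the WT arrays (-1.18 ± 0.45), and Il27, a cytokine subunit that restrains T cells, 0.52 and 1.27 on the KO arrays, against 1.30 and 1.94 on the WT arrays (-0.73 ± 0.30). Il10, the main anti-inflammatory cytokine of macrophages, was lower within each pair (-1.06 and -0.64) with -2.01 and 0.49 in KO and -0.95 and 1.13 in WT, so the groups overlapped. On the higher side were Il12a, Cxcl1 and Cxcl3, given above, Cxcl2 (2.66 and 0.22) and Il1a (1.71 and 0.57). Il1b, the cytokine that the inflammasome matures, had 6.29 and 7.01 on the KO arrays, against 5.21 and 6.27 on the WT arrays. Both KO arrays were above both WT arrays, by 1.08 and 0.74 within the pairs. The standard error was as large as the difference (0.91 ± 0.92), and it includes the spread at other times. At 0 h Il1b read -1.76 and 0.68 in KO and -1.59 and 0.43 in WT. Il6 was higher only in pair 1 (1.89 and -0.13), and its sign turned to -0.66 without WT_24 replicate 1. Il12b, the p40 subunit shared by IL-12 and IL-23, had -0.37 and 0.12 in KO and -1.63 and -0.12 in WT (0.75 ± 0.57). Tnf had 4.82 and 6.34 in KO and 4.34 and 6.10 in WT and a difference of 0.36 ± 1.23, within its error. Its pairs gave 0.48 and 0.25, while at 0 h Tnf read 0.21 and 4.7 in KO and 0.16 and 4.56 in WT. The count called was 0, and those with an unadjusted p under 0.05 were Il12a, higher, and Ccl22, Il15 and Il27, lower.

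Cell death and inflammasome genes were lower in KO in both pairs for 24 of 35 (68.6%) and higher for 2 (5.71%), with a median of -0.29. The members with an unadjusted p under 0.05 were 4, all lower. Tnfsf10 (TRAIL), a ligand of death receptors, had -1.68 and 0.12 on the KO arrays, against -0.10 and 1.09 on the WT arrays (-1.28 ± 0.47), with 1 KO array just above 1 WT array. Fas, a death receptor, had 1.70 and 2.40 on the KO arrays, against 2.51 and 3.25 on the WT arrays without overlap (-0.83 ± 0.28). Casp4, the sensor of LPS inside the cell known in mouse as caspase-11, had 5.28 and 6.35 in KO and 6.20 and 6.89 in WT (-0.73 ± 0.30), and Casp1, which cuts pro-IL-1β, 5.69 and 6.74 in KO and 6.39 and 7.2 in WT (-0.58 ± 0.24), both overlapping between groups. Apaf1, the scaffold of the apoptosome, was also lower in both pairs (-0.37 and -0.60). Nlrp3, an inflammasome sensor, was on the other side (0.24 and 0.51). The median stayed negative with either KO_24 or either WT_24 array left out (-0.37 to -0.18). None of the 35 was called (0).

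JAK-STAT receptors, kinases and inhibitors, which carry interferon and cytokine signals, were lower in both pairs for 25 of 39 (64.1%) and higher for 5 (12.8%), with a small median of -0.17 (-0.07 without KO_24 replicate 1, -0.095 without WT_24 replicate 2) and 0 called. Il15ra, the receptor that presents IL-15, had 0.076 and 2.26 on the KO arrays, against 1.93 and 3.0 on the WT arrays. Its difference was -1.30 ± 0.35 (adjusted p = 0.837), lower within each pair and overlapping between them. Il2rg, the common gamma chain, had -0.88 and -0.31 in the 2 pairs, the kinase Tyk2 -0.99 and -0.39 and Stat5a -0.69 and -0.46. Among inhibitors, Socs2 had -0.42 and -0.82, Socs1 -0.65 and -0.12 and Socs3 -0.14 and -0.22. The phosphatase Ptpn6 (SHP-1) was higher in both pairs by a little (0.25 and 0.25).

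**Figure D3:**
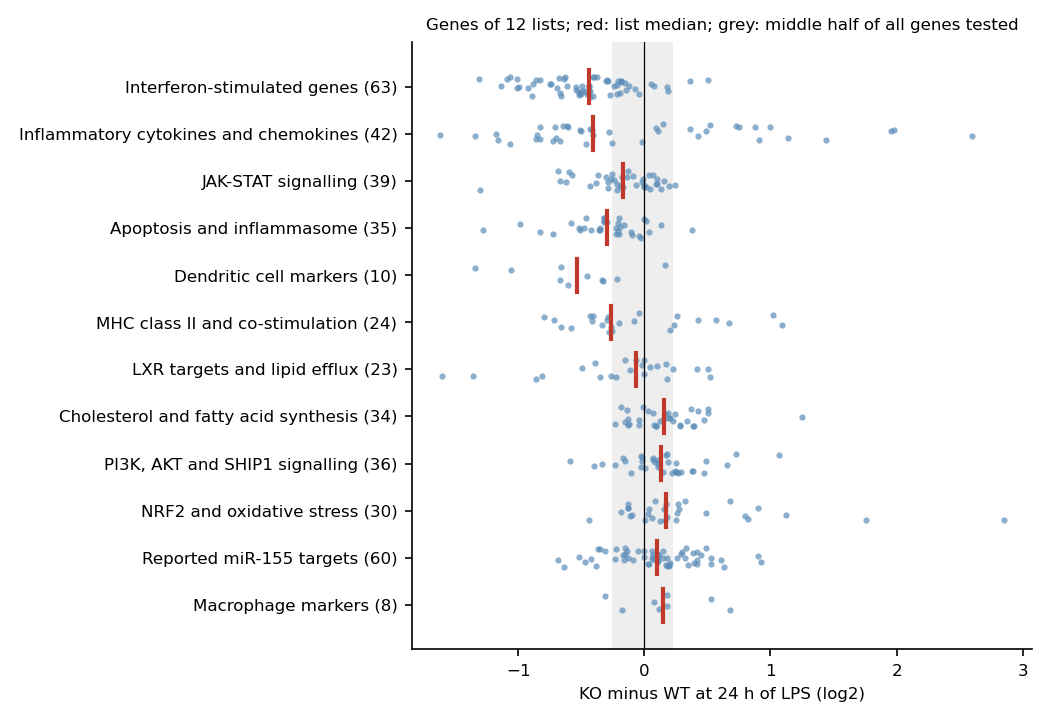
KO minus WT at 24 h of LPS (horizontal axis, log2) for each tested gene of 12 gene lists, with the number tested in brackets. Points are genes, red bars list medians, the grey band the range between the quartiles of all 17650 genes (-0.25 to 0.22) and the black line their median. The medians of the interferon, cytokine, apoptosis, dendritic cell and MHC class II lists lie left of the grey band, and those of the reported targets, NRF2, PI3K and cholesterol lists lie right of the line but inside the band.

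Reported targets of miR-155 were more often above WT than below it. Of 60 tested of 63 listed, 30 (50%) were higher in both pairs, against 30.1% of all genes, and 14 (23.3%) lower, against 31.8%, but the median was only 0.10, or 0.047 without KO_24 replicate 2, and 0 were called. Tspan14, a tetraspanin that partners the protease ADAM10, had 4.37 and 4.54 on the KO arrays, against 3.57 and 3.55 on the WT arrays. Its difference was 0.90 ± 0.22 (adjusted p = 0.803), with no overlap of the genotypes. Ets1, an ETS transcription factor, had -1.59 and -3.73 on the KO arrays, against -2.92 and -4.25 on the WT arrays (0.92 ± 0.39), and Smad5, a BMP signal transducer, -1.36 and -2.37 on the KO arrays, against -1.97 and -3.03 on the WT arrays (0.63 ± 0.27), both overlapping between the genotypes. Further probes of Ets1 gave differences from 0.25 to 1.02, and the other probe of Smad5 gave 0.27. These 3 of the 60 were the targets with an unadjusted p under 0.05, a p that 5.6% of all genes had. Inpp5d, the SHIP1 phosphatase, had 4.71 and 4.67 on the KO arrays, against 4.07 and 4.54 on the WT arrays. Both KO arrays were above both WT arrays, yet the difference of 0.38 ± 0.31 had a 95% interval of -0.31 to 1.07, and without WT_24 replicate 1 it was -0.044. Jarid2, a partner of the Polycomb complex PRC2, had 0.56 and 1.02 on the KO arrays, against 0.24 and 0.43 on the WT arrays (0.45 ± 0.28, interval -0.18 to 1.08). Csf1r, the M-CSF receptor, had 7.18 and 5.77 on the KO arrays, against 6.59 and 5.31 on the WT arrays (0.53 ± 0.26, interval -0.057 to 1.11), and Spi1 (PU.1), the macrophage master regulator, 2.41 and 3.18 on the KO arrays, against 2.32 and 2.68 on the WT arrays (0.30 ± 0.31). Tab2 (0.21 ± 0.22) and Ikbke (0.26 ± 0.22), of the Toll-like receptor pathway, Smad2 (0.18 ± 0.22) and Bach1 (0.17 ± 0.33), a repressor of haem oxygenase, were all within or near their errors. Cebpb, whose probe holds the seed match printed above, had 6.01 and 5.55 on the KO arrays, against 5.85 and 5.59 on the WT arrays, a difference of 0.058 ± 0.23 with an interval of -0.46 to 0.58, and the mismatch repair gene Msh6 had 0.029 ± 0.21. Socs1 ran the other way, with 3.01 and 3.68 on the KO arrays, against 3.66 and 3.81 on the WT arrays (-0.39 ± 0.23, interval -0.90 to 0.13). Each of the intervals given here includes 0, and all but that of Socs1 reach 0.58 or more above it, so these arrays neither show a higher level of these targets in KO nor show that they were at the WT level.

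Genes whose probe holds the seed match AGCATTA were also more often higher: of 68, 30 (44.1%) were higher in both pairs and 13 (19.1%) lower, with a median of 0.16, 0.18 in pair 1 and 0.064 in pair 2. The same letters read on the opposite strand (TAATGCT) were in another 68 probes, none of them shared (0), where 25 (36.8%) were higher, 20 (29.4%) lower and the median was 0.0082. Wdr41, part of a lysosomal complex with C9orf72, had 1.30 and 1.55 on the KO arrays, against 0.85 and 0.84 on the WT arrays. Its arrays did not overlap, with a difference of 0.58 ± 0.18 (adjusted p = 0.862). Entpd6, a nucleotidase, had -0.35 and -0.021 on the KO arrays, against -0.76 and -1.08 on the WT arrays (0.74 ± 0.25), while its other probes gave differences down to 0.19. Cdc42ep1, a Cdc42 effector, was not well above background on either WT array and measured 1.63-fold higher in KO. No bound is given for it, since its WT signal lay above the dimmest signal called and still failed that call. Olfr60, an olfactory receptor gene, had -3.45 and -4.19 on the KO arrays, against -2.67 and -3.49 on the WT arrays (-0.75 ± 0.29), lower within each pair, and under normexp its difference was 0.18. In the sites printed above, the letters around the capitals differ between these 4 genes. With the normexp background correction the median of all genes moved by 0.187, and the medians were then 0.23 for the seed-match genes, 0.31 for the other strand and 0.04 for the reported targets, so the reported targets were then below the median of all genes and the seed-match genes near it.

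**Figure D4:**
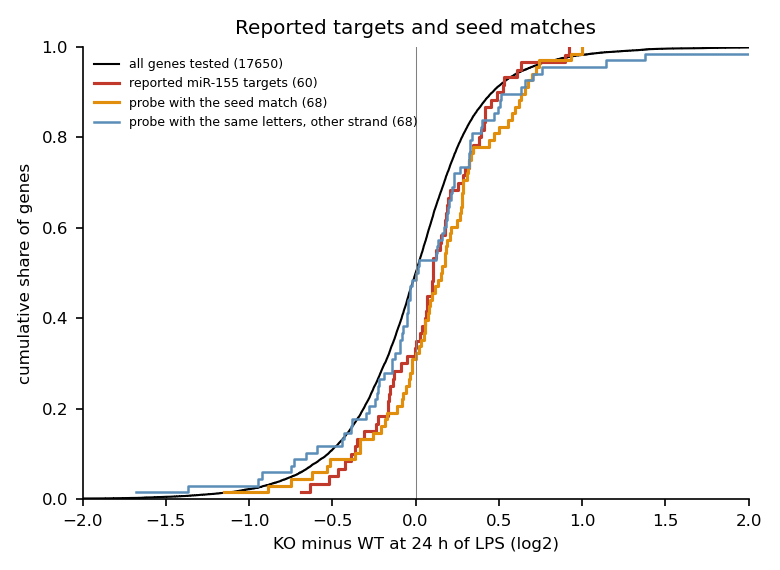
Cumulative share of genes (vertical axis) by KO minus WT at 24 h of LPS (horizontal axis, log2, cut at 2 either way) for all 17650 genes, 60 reported miR-155 targets, 68 genes with the seed match in their probe and 68 with the same letters on the other strand. The curves of the reported targets and of the seed-match genes run right of that of all genes through most of the middle, with medians of 0.10 and 0.16 against -0.0001, and that of the other strand lies near it with a median of 0.0082.

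Among metabolic and signalling groups, oxidative stress genes controlled by the factor NRF2 were higher in both pairs for 17 of 30 (56.7%) and lower for 4 (13.3%), with a median of 0.17 and 0 called. Beside Cbr1, the highest was Slc7a11, the cystine transporter, with 0.31 and -3.42 on the KO arrays, against -1.74 and -4.88 on the WT arrays (1.75 ± 0.56). Within each pair KO was higher, and the pairs lay far apart in level. Gclm, a subunit of the enzyme that limits glutathione synthesis, had 1.18 and 0.62 in the 2 pairs, glutathione reductase Gsr 0.92 and 0.67 and catalase, Cat, 0.70 and 0.66, while haem oxygenase Hmox1 had -0.78 and -0.10. The list's median at 0, 6 and 12 h was 0.18, 0.21 and 0.14. Under normexp it was 0.093, below the shift of all genes. Cholesterol and fatty acid synthesis genes were higher in both pairs for 15 of 34 (44.1%) and lower for 1 (2.94%), with a median of 0.16. Srebf1 (0.27 and 0.74) and Srebf2 (0.76 and 0.24), the transcription factors that control these genes, were higher in both pairs. The median of the list turned to -0.15 without KO_24 replicate 1 and to -0.032 without WT_24 replicate 2. PI3K and AKT genes were higher for 17 of 36 (47.2%) and lower for 5 (13.9%), with a median of 0.13 (0.049 without WT_24 replicate 1). Pik3cg, the catalytic subunit p110γ, had 1.66 and 1.28 on the KO arrays, against 0.33 and 0.48 on the WT arrays without overlap (1.06 ± 0.45). LXR targets and lipid efflux genes were lower for 11 of 23 (47.8%) and higher for 4 (17.4%), with a median of -0.069 (-0.027 without KO_24 replicate 1, -0.16 without WT_24 replicate 1). Fabp4, a fatty acid carrier, had 2.59 and 2.24 on the KO arrays, against 4.32 and 3.72 on the WT arrays, a difference of -1.60 ± 0.49 without overlap. Pparg, the nuclear receptor that controls Fabp4, had 0.18 and 1.25 on the KO arrays, against 1.22 and 1.94 on the WT arrays (-0.86 ± 0.32). With normexp the PI3K median was 0.097 and the cholesterol median 0.18, both below the 0.187 of all genes.

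Arginine and nitric oxide genes gave values without agreement between members. Nos2, inducible nitric oxide synthase, was lower within each pair with -1.90 and 0.63 in KO and -0.038 and 1.27 in WT (-1.25 ± 0.79). Arg1 was higher by 0.92 ± 0.99 and Arg2 by 0.97 ± 1.38, each within its error, and the arginine transporter Slc7a2 had 0.90 and 0.56 on the KO arrays, against -0.16 and -0.41 on the WT arrays (1.01 ± 0.45). Within the pairs Arg1 gave 0.79 and 1.04 and Arg2 0.60 and 1.35, and their errors include the spread at other times. Acod1, which makes itaconate, read 8.51 and 8.64 in KO and 8.59 and 8.60 in WT, a difference of -0.021 ± 0.69. The list as a whole was higher in both pairs for 12 of 26 and lower for 6, with a median of 0.043 that was -0.003 without KO_24 replicate 1, -0.079 without WT_24 replicate 2 and -0.038 under normexp. In the amino acid and unfolded protein response, 15 of 32 were higher and 10 lower (median 0.17), with Shmt2, a mitochondrial serine-to-glycine enzyme, at 1.25 and 0.88 in KO and 0.54 and 0.12 in WT (0.73 ± 0.24). Glycolysis and hypoxia genes were higher for 17 of 34 and lower for 9, with a median of 0.15. Single arrays turned these medians too: that of the stress response was -0.14 without KO_24 replicate 1 and -0.06 without WT_24 replicate 2, and that of glycolysis -0.023 without KO_24 replicate 2 and -0.031 without WT_24 replicate 1. Under normexp they were 0.091 and 0.035, also below that of all genes.

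Toll-like receptor genes had no common direction, with 17 of 36 higher and 13 lower in both pairs and a median of 0.018. Cd14, the co-receptor that hands LPS to Tlr4, had 6.99 and 7.02 on the KO arrays, against 6.40 and 6.25 on the WT arrays, a difference of 0.68 ± 0.30 without overlap. Tlr6 (-0.41 ± 0.17) and Tlr9 (-0.54 ± 0.23), sensors of lipopeptides and of DNA, measured lower in both pairs. Among feedback regulators, 16 of 38 were lower and 9 higher (median -0.14), and Atf3, a repressor of inflammatory genes, had 4.86 and 6.08 on the KO arrays, against 5.69 and 6.75 on the WT arrays (-0.75 ± 0.19). Genes of MHC class II and co-stimulation were lower for 12 of 24 and higher for 8, with a median of -0.26 that turned to 0.10 without KO_24 replicate 1, to 0.034 without WT_24 replicate 2 and to 0.018 under normexp. Against that median, Icosl, the ligand of the T cell co-stimulator ICOS, had 4.10 and 3.14 on the KO arrays, against 2.96 and 2.24 on the WT arrays, a difference of 1.02 ± 0.22 without overlap (adjusted p = 0.783). The alternative activation list was lower for 12 of 26 and higher for 7 (median -0.10), with Klf4, a factor of monocyte differentiation, at 1.29 and 1.65 on the KO arrays, against 1.91 and 2.60 on the WT arrays (-0.79 ± 0.29). Among matrix and lysosomal genes, Spp1 (osteopontin) had 5.43 and 5.81 in KO and 6.07 and 6.73 in WT (-0.78 ± 0.32), Mmp9 (gelatinase B) -1.18 and -1.26 in KO and -1.69 and -2.38 in WT (0.82 ± 0.28) and the proton pump subunit Atp6v0d2 -2.50 and -3.13 in KO and -0.85 and -2.16 in WT (-1.31 ± 0.39). Of the matrix list itself, 9 of 34 were higher and 13 lower, and of the lysosome and phagocytosis list 10 of 33 higher and 10 lower. Cell cycle genes were higher for 22 of 76 and lower for 34, and mismatch repair genes for 5 and 1 of 8. Macrophage identity genes, such as lineage factors, were higher for 11 of 37 and lower for 10. SMAD and TGF-beta genes were higher for 12 of 27 and lower for 5. MHC class I and immunoproteasome genes were higher for 4 of 18 and lower for 8, and prostaglandin and leukotriene genes for 6 and 5 of 17. The medians of these 8 lists lay between -0.13 and 0.084. Leaving out 1 array turned the direction of each of these 8 medians at least once. Without KO_24 replicate 1 they were 0.13 for cell cycle, -0.042 for mismatch repair, 0.018 for MHC class I and 0.051 for lysosome genes. Without KO_24 replicate 2 they were -0.054 for macrophage identity, -0.038 for SMAD, 0.084 for prostaglandin and, of the Toll-like receptor list, -0.057. Without WT_24 replicate 1 the identity, SMAD and Toll-like receptor medians were -0.024, -0.016 and -0.011, and without WT_24 replicate 2 those of cell cycle, mismatch repair and lysosome genes were 0.017, -0.068 and 0.036. Single arrays also turned the medians of feedback regulators (0.022 without WT_24 replicate 2) and of matrix genes (0.19 without KO_24 replicate 1, 0.17 without WT_24 replicate 2), and normexp turned that of alternative activation (0.20). None of the lists held a called gene (0).

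Markers of other cell types were read on the same arrays. The summed level of the macrophage list (log2 of the members' added signals, on the scale of the levels) was 11.14 and 10.44 on the KO arrays, against 11.05 and 10.18 on the WT arrays, with a median difference of 0.15 (-0.011 without KO_24 replicate 2). Dendritic cell markers were lower in both pairs for 9 of 10 tested, with a median of -0.53 and a summed level of 8.38 and 8.48 in KO and 8.75 and 8.54 in WT. That sum is mostly Bst2, which interferon also induces in macrophages. Of the defining members, Batf3 had 0.60 and 0.42 in KO and 1.56 and 0.79 in WT (-0.66 ± 0.26), Flt3 -4.56 and -6.46 in KO and -4.47 and -5.87 in WT and Zbtb46 -1.53 and -3.38 in KO and -1.0 and -1.80 in WT, and Ccl22 was well above background on 1 of the 4 arrays. The median of this list turned to 0.24 under normexp, which raised the median of all genes by 0.187. The part of these cells' markers in the lower interferon and cytokine values was not tested. Endothelial markers were lower for 4 of 5, among them Kdr, while Cdh5, the cadherin that defines endothelium, had -4.86 and -4.20 in KO and -4.20 and -3.96 in WT. Among lymphocyte markers, 3 of 7 T and NK cell markers were lower and 1 higher, and 3 of 8 B cell markers were lower and 0 higher. The summed level was -1.47 and -1.86 in KO and -1.13 and -1.54 in WT for the T and NK cell list. For the B cell list it was 7.51 and 7.30 in KO and 7.41 and 7.56 in WT. The median level of the B cell members was -4.45 in KO and -3.36 in WT, so that sum rests on the brighter members. Neutrophil markers were evenly split, 3 higher and 3 lower of 12, and their defining members Ngp (-3.64 and -8.37 in KO and -3.02 and -8.48 in WT) and Retnlg (-6.54 and -7.70 in KO and -8.04 and -7.12 in WT) were far below the level of 0. Other members were brighter, as the summed level of the neutrophil list was 4.62 and 4.19 in KO and 4.46 and 3.94 in WT. The erythroid (4 tested), megakaryocyte (5), mast cell (3), stromal (9), osteoclast (10) and progenitor (5) lists had medians from -0.46 to -0.12. Single arrays turned those of the erythroid (0.37 without WT_24 replicate 1), stromal (0.38 without KO_24 replicate 1), osteoclast (0.28 without KO_24 replicate 1) and progenitor (0.20 without WT_24 replicate 2) lists. Under normexp each of these 6 medians was above 0, from 0.058 (osteoclast) to 0.68 (mast cell), as were those of the endothelial (0.27), T and NK cell (0.39) and B cell (0.40) lists.

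Whether the 24 h difference was itself different from that at an earlier time was tested as an interaction over all genes. The number past the adjusted threshold was 0 against 0 h (0%), 0 against 6 h (0%) and 0 against 12 h (0%), with 349, 379 and 509 genes at an unadjusted p under 0.05. The smallest adjusted p was 0.0911 against 6 h (Noxa1, an activator subunit of an NADPH oxidase) and 0.0853 against 12 h (Sod3, a secreted superoxide dismutase), of which Noxa1 was well above background at 24 h on 1 KO array and Sod3 on no array. Described without a test, the difference of Mrpl39 was -0.041, -2.13 and -3.77 at 0, 6 and 12 h and -2.09 at 24 h. It had passed the adjusted test at 12 h (adjusted p = 0.000941). Its WT level was 2.28 at 0 h and 3.10 at 24 h, while its KO level was 2.24 at 0 h and 1.02 at 24 h (means of 2 arrays). Chaf1b had -0.19, -0.72 and -1.54 at the earlier times and -1.74 at 24 h, and Il12rb1 had 0.10, -0.75 and -1.52 and then -2.12. Fabp4 likewise had 0.12, 0.13 and -1.20 before -1.60. On the positive side, Gpr84 had 0.29, 0.48 and 1.25 before 1.85, Cd300e -0.017, 0.17 and 0.77 before 1.31, and Icosl 0.039, 0.62 and 1.28 before 1.02. The interferon list had medians of 0.24, 0.013 and -0.20 at 0, 6 and 12 h beside -0.44 at 24 h. For the apoptosis list these were 0.059, -0.023 and -0.17 beside -0.29, and for the reported targets 0.078, 0.12 and 0.13 beside 0.10.

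**Figure D5:**
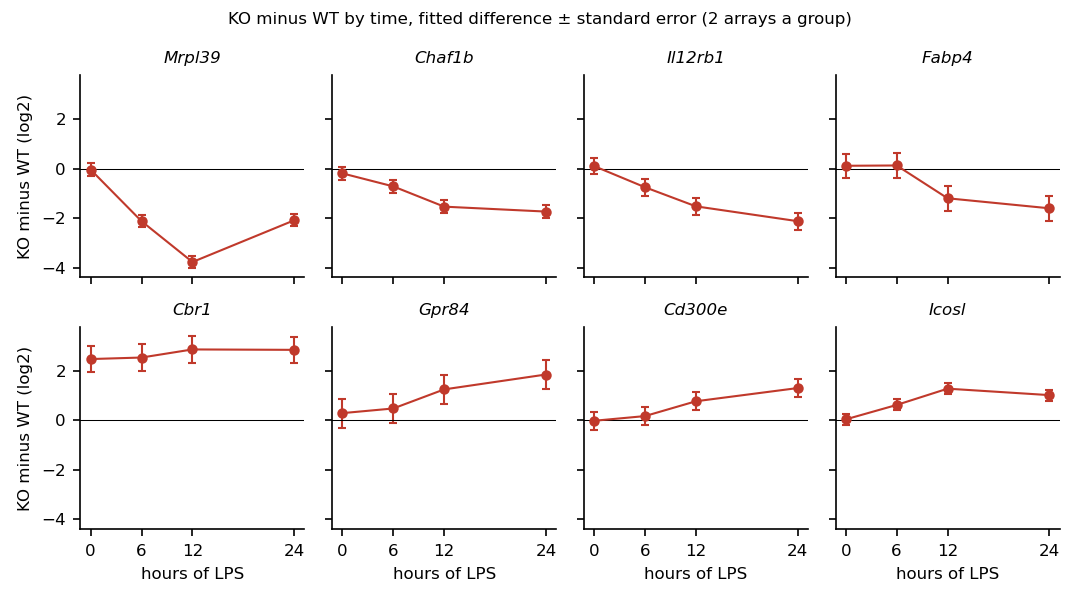
KO minus WT (vertical axes, log2, fitted difference with its standard error as bars, 2 arrays a group) at 0, 6, 12 and 24 h of LPS (horizontal axes) for 8 genes. Mrpl39, Chaf1b, Il12rb1 and Fabp4 lie below 0 at 12 and 24 h and near it at 0 h, Gpr84, Cd300e and Icosl lie above it at 12 and 24 h, and Cbr1 lies between 2.48 and 2.87 at every time.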

How the data were processed

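RNA of 16 macrophage samples (8 groups of 2) was hybridised to 1-colour Agilent arrays. Per the file headers, the authors scanned the arrays and extracted spot intensity, background-subtracted by Agilent Feature Extraction 10.5.1.1, with probe positions on mm9. The authors also deposited a series table of log2 values, whose correlation with the scanner log2 signal was 1 on each array. The sources used here do not state its scaling, but its 75th percentile was nearly the same on every array (8.7894 to 8.7898). It served as an alternative that is close to the main setting. Control spots (1639 an array) and outlier spots (61 to 108) were left out, and 0 spots were saturated. Each log2 signal had the 75th percentile of its array subtracted. Probes (41077) were named by RefSeq accession (26869), symbol (5559), synonym (891) or the array file (7758), and 26845 were well above background on both arrays of a group. The brightest of them stood for each of 17650 genes.

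limma 3.58.1 in R 4.3.3 fitted 8 group means over all 16 arrays with the replicate number as a block with 7 residual degrees of freedom and a prior of 2.605. Adjusted p-values are Benjamini-Hochberg values over all genes, called under 0.05. Same-numbered arrays shared a scan session, per the file headers, and over the 28 pairs of groups the correlation of their deviations from the mean of each group ran from 0.40 to 0.839 (median 0.578), so the numbers pair the samples. The fit was tested on simulated data with known changes. Where the dimmer group was not well above background on either array, an approximate lower bound replaced the fold, except for Cdc42ep1. The bound takes each dim array at its dimmest signal called well above background, or at the gene's own signal if that was brighter. That call is made spot by spot, so a bound can be too large. Genes were to be named as the 15 largest each way, with called members of 36 lists and a fixed set of targets and cytokines; as none was called, list members were named by unadjusted p under 0.05 or picked after their values were seen. The comparison's members and all lists were chosen with earlier results of these data known. Alternatives changed the block, background correction, scaling, probe filter, probe choice, variance moderation and arrays used.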

Additional observations from a re-analysis of the deposited data

How the results depend on the processing

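Over 89 genes of the text, 2381 of 2403 values under 27 alternatives had the direction reported, and 9 passed the adjusted threshold. Of these alternatives, dropping the block, the intensity trend, the 24 h arrays alone and leaving out an array of 0, 6 or 12 h could alter only the error. Their 24 h difference equals the reported one, so the shared direction was in large part fixed in advance. No gene was called at 24 h without the replicate block (0), and the pairing therefore changed no call, though the count at an unadjusted p under 0.05 was 210 without the block and 989 with it. That count was 35 with the normexp correction, 2121 with only the 4 arrays of 24 h and the replicate block, and 577 to 1158 with single arrays left out. Quantile normalization called 2 genes at 24 h (Kcna6, 3.69, adjusted p = 0.0366, and Mrpl39, -2.10, adjusted p = 0.0434), and limma's intensity trend 2 (Mrpl39, adjusted p = 0.0322, and Rptoros, adjusted p = 0.0437). Leaving out single arrays called 0 to 2: the clone-named 3222401L13Rik and Zfp9 without WT_24 replicate 2, Rptoros without KO_24 replicate 1, Btbd11 without either KO_12 array and Kcna6 without either KO_00 array. For the difference between 24 h and earlier times, quantile normalization called 2 genes against 6 h and 1 against 12 h, and single arrays left out gave 0 to 1 against 0 h, 0 to 1 against 6 h and 0 to 4 against 12 h. The direction turned under normexp for Tnfsf8 (0.44), Vps37d (0.51), Cebpb (-0.17) and Olfr60 (0.18). With the slide as the block it turned for Bach1 (-0.12), Spi1 (-0.025) and Arg2 (-0.17), and with the mean of all probes for Acod1 (0.025). With single arrays left out it turned within ranges of -0.68 to 0.64 for Acod1, -0.67 to 2.62 for Arg2, -0.22 to 0.33 for Cebpb, -0.016 to 0.53 for Ikbke, -0.66 to 2.42 for Il6, -0.045 to 0.81 for Inpp5d, -0.19 to 0.25 for Msh6, -0.030 to 0.39 for Smad2 and -0.016 to 0.61 for Spi1. The cause was not tested. With 2 arrays a group, these data resolve only large differences, and transcripts near background have approximate bounds in place of folds.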
